A study of Saccharomyces cerevisiae with 6 samples.

Results

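The cytosolic Hsp70 and Hsp40 chaperone system of the budding yeast Saccharomyces cerevisiae was followed by RNA-seq in 3 strains, through 10 genes chosen by name: the Hsp70 genes SSA2, SSA3, SSA4, SSB1 and SSB2, the Hsp110 genes SSE1 and SSE2, the Hsp40 genes SIS1 and YDJ1, and the exchange factor gene FES1. Of these, 7 had values among the 6032 genes listed, and SSA2, SSB1 and SSB2 were not analysed here, nor was SSA1, the remaining member of the SSA family. The WT strain carried unaltered ASK10, another lacked ASK10 (deletion), and the last carried ASK10 with the M475R substitution (M475R). The Ask10 protein acts on Fps1, the channel through which yeast releases glycerol. All strains grew in synthetic medium without uracil with 20 g/l glucose, and the labels name neither the parent strain nor whether libraries came from separate cultures. Values were at hand for 5 of the 6 samples: both replicates of WT and of M475R, and replicate 2 of the deletion, whose replicate 1 was not analysed here. The comparisons therefore rest on 1 deletion library.

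Hsp70 proteins bind exposed hydrophobic stretches of other proteins and release them in cycles of ATP binding and hydrolysis. Hsp40 proteins, also called J-domain proteins, deliver clients and stimulate hydrolysis, and exchange factors such as the Hsp110 proteins and Fes1 replace ADP by ATP so that the client is let go. In yeast the Ssa proteins serve the general cytosolic pool, while the Ssb proteins work on the ribosome with new polypeptides. SSA1 and SSA2 are made during normal growth, whereas SSA3 and SSA4 are known as stress-induced genes, and the heat shock factor Hsf1 drives many genes of the system.

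Total expected counts lay between 51576 and 117680 in 4 libraries and reached 4155203 in M475R replicate 1, which was 35.3 to 80.6 times as deep as the others. A level of 3 counts, used as the floor, was worth 28.5 to 63.8 CPM in the shallow libraries and 0.784 CPM in M475R replicate 1, where CPM is the count scaled to a common library size after TMM normalization by edgeR. The WT pair differed by no more than sampling noise (chi-square of 1.00 per degree of freedom over 2001 genes, p = 0.443), as did the M475R pair (1.02 over 2876 genes, p = 0.18), so each pair was counted as 1 sample of its strain. The test still took the 5 libraries separately, and its p-values therefore compare libraries, not conditions. As a check of the strains, ASK10 was counted 5 and 7 times in WT, 0 times in the deletion, and 567 and 4 times in M475R.

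By their listed values the 7 genes fell into an upper and a lower set in every library, though counting error left the boundary unresolved in 3 of the 5. On the length-scaled FPKM of the authors, SSE1, YDJ1, SIS1 and FES1 were the upper 4 in every library, in varying order, and SSA4, SSE2 and SSA3 always followed in that order. The Hsp110 gene SSE1, the main exchange factor of the cytosol, stood at 583 and 599 FPKM in WT, 433 in the deletion, and 634 and 447 in M475R. YDJ1, which encodes the most abundant general Hsp40, stood at 454 and 492 FPKM in WT, 510 in the deletion, and 626 and 618 in M475R. SSE1 and YDJ1 were thus at like levels per length, and their 95% counting intervals overlapped in 4 libraries in which they were neighbours in the order, while in M475R replicate 2 SIS1 stood between them. At the boundary, the intervals of FES1 and SSA4 overlapped in WT replicate 2, in the deletion and in M475R replicate 2. The lower genes reached at most 52.5 FPKM, the value of SSA4 in M475R replicate 1. SSA3 was the lowest throughout, with 20.5 and 10.2 FPKM in WT, 17.8 in the deletion, and 27.8 and 14.7 in M475R. Only in M475R replicate 1 was the depth enough to part SSA4, SSE2 and SSA3 (52.5, 42.1 and 27.8 FPKM); in the other libraries, each with 7 or fewer counts for each of these genes, the intervals of neighbours overlapped.

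**Figure D1:**
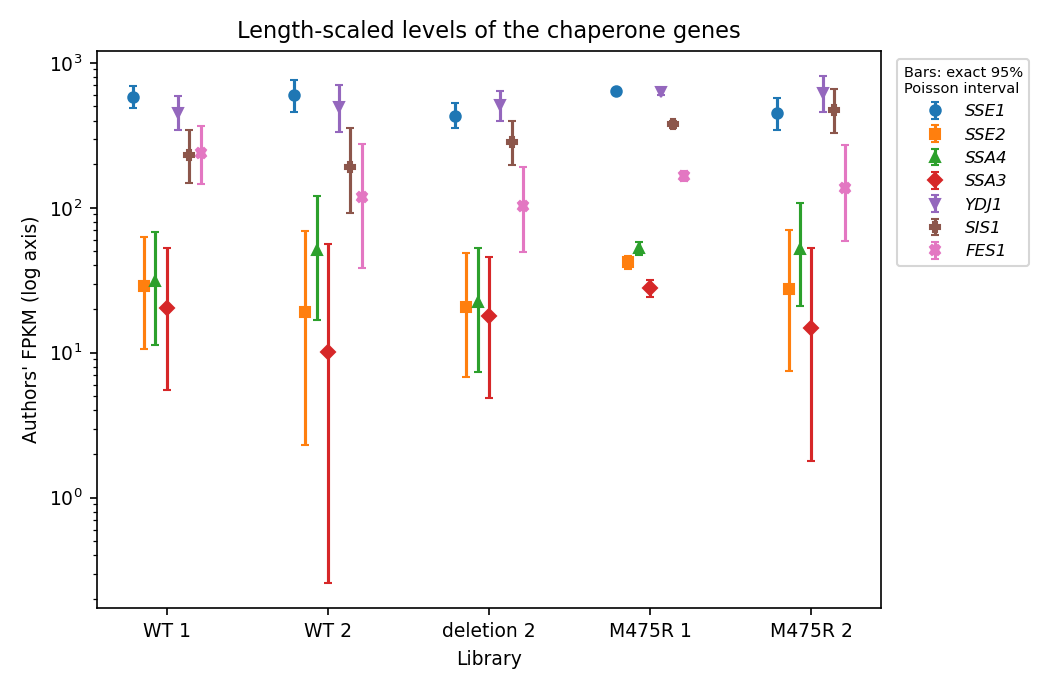
FPKM as deposited by the authors (log axis) for the 7 chaperone genes in each of the 5 libraries, with exact 95% Poisson intervals from the counts. SSE1, YDJ1, SIS1 and FES1 lie above SSA4, SSE2 and SSA3 in every library, and intervals are narrow only in M475R replicate 1.

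Reads may be shared between near-identical copies. Likeness of the copies was taken from the reference sequence of the laboratory strain S288C (assembly R64). There the coding sequences of SSA1 and SSA2 were 96.4% identical with an unbroken shared stretch of 383 bases. Those of SSB1 and SSB2 were 97.4% identical with a stretch of 563 bases. The genes measured here were less alike. SSA3 and SSA4 were 76.6% identical, each was 73.6% to 74.3% identical to SSA1 or SSA2, and no shared stretch with any of these copies exceeded 24 bases. SSE1 and SSE2 were 71.8% identical, with a longest shared stretch of 23 bases. The listed lengths of all 7 genes equalled those in R64, although the files name the strain CEN.PK113-7D, whose own sequence was not used here.

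The first question was whether the M475R allele went with another level of this chaperone system than wild-type ASK10. Of the 7 genes, 5 passed the filter on low counts and were tested, and 1 of them, SIS1, was higher in M475R than in WT, with 4 not passing and 0 lower. Both M475R libraries lay above both WT libraries in 2 of the 7, and the libraries overlapped in 5. Over all tested genes 28% had both M475R libraries above both WT libraries and 26.1% had them below. The 2 genes, SIS1 and YDJ1, were among the 5 tested, too few to tell 2 of 5 from that background. Among all 2909 genes tested, 18.6% were called in this comparison, 8.46% higher and 10.1% lower, so 1 of 5 is close to the background. The median log2 fold change of the 5 tested genes was 0.40, beside 0.01 over all genes tested. These were bulk cultures, in which a change in every cell and a change in the share of cells with the transcript cannot be told apart.

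SIS1 encodes an essential Hsp40 that works with Ssa proteins. It was counted 24 and 10 times in WT, 34 times in the deletion, and 1576 and 34 times in M475R. These counts correspond to 258 and 213 CPM in WT, 323 in the deletion, and 412 and 512 in M475R. Both M475R libraries thus lay above both WT libraries, and the deletion library lay between them. The pooled M475R level was 1.70-fold that of WT (exact 95% counting interval 1.21 to 2.47), a log2 fold change of 0.77 ± 0.24 SE (adjusted p = 0.00819, edgeR quasi-likelihood test with Benjamini-Hochberg adjustment). In edgeR the call was lost without WT replicate 1 (log2 fold change 0.98, adjusted p = 0.149) or without WT replicate 2 (0.68, adjusted p = 0.0832). It was also lost with DESeq2 (0.89, adjusted p = 0.168) and, in edgeR, with the biological coefficient of variation (CV) set to 20% (0.90, adjusted p = 0.255). Without M475R replicate 1, by contrast, the log2 fold change was 1.11 and the call was kept (adjusted p = 0.0292, edgeR).

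YDJ1 was counted 55 and 30 times in WT and 3075 and 52 times in M475R, that is 592 and 638 CPM against 804 and 783 CPM. Again both M475R libraries stood above both WT libraries, and the deletion library, at 675 CPM from 71 counts, stood between. Its ratio of M475R to WT was 1.32 (1.07 to 1.66), and it did not pass the test (log2 fold change 0.40 ± 0.17 SE, adjusted p = 0.0822, edgeR). It did pass when libraries were scaled by total counts (adjusted p = 0.0413, edgeR) or when the deletion library was left out (0.0309, edgeR). In counts, SIS1 made up 28.6% of the SIS1 and YDJ1 total in WT (exact 95% binomial interval 20.7% to 37.6%) and 34.0% in M475R (32.6% to 35.4%), so a change in the proportion of these Hsp40 transcripts was not detectable at this depth.

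**Figure D2:**
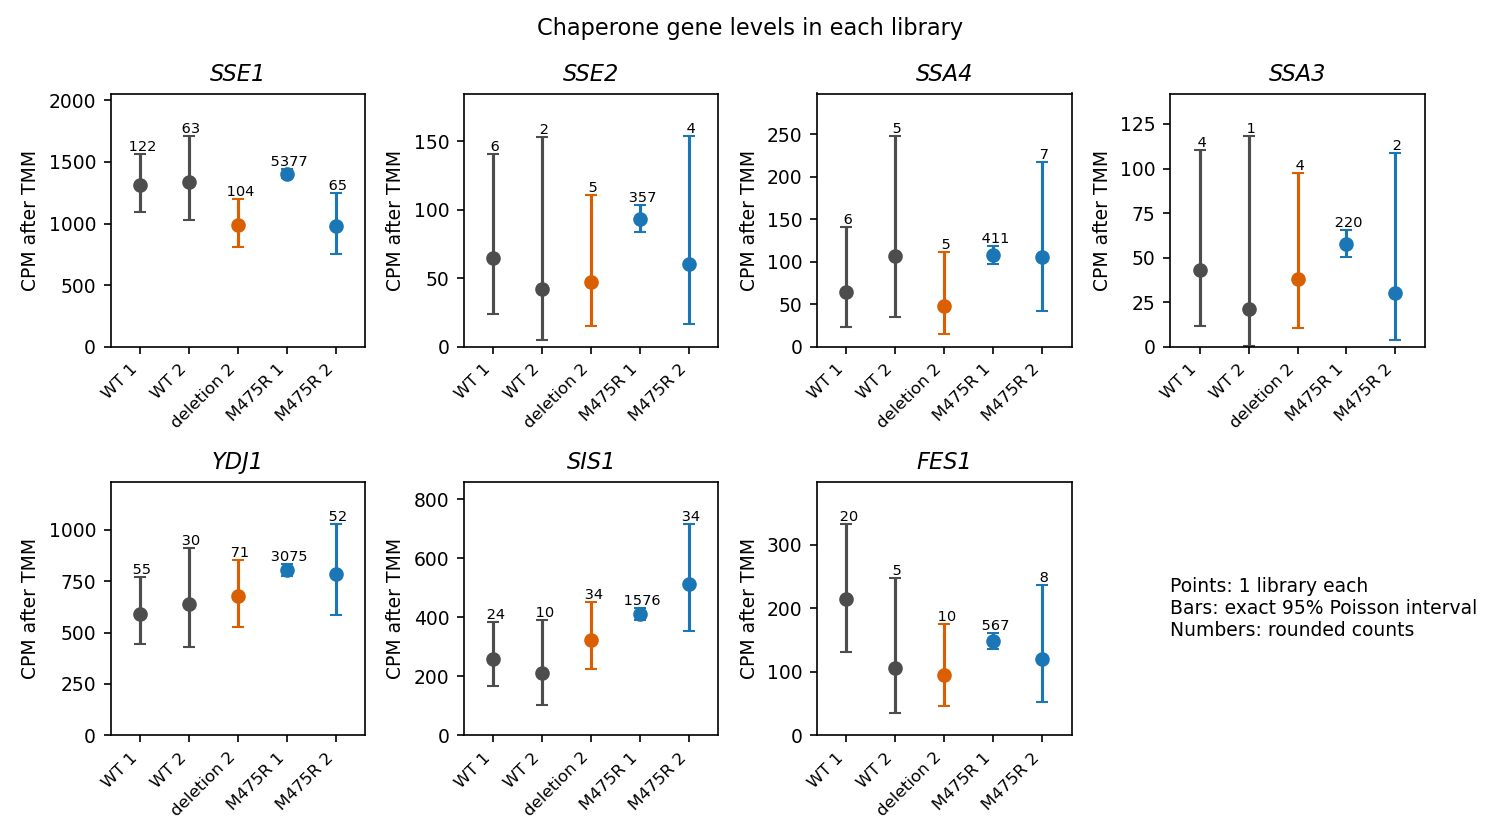
CPM after TMM scaling for each of the 7 genes in each library (linear axes from 0, scale differs between panels), with exact 95% Poisson intervals and the rounded count above each point. For SIS1 and YDJ1 both M475R libraries lie above both WT libraries, while for SSE1, FES1, SSA3, SSA4 and SSE2 the libraries of these strains overlap.

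The exchange factor genes gave no call between M475R and WT. SSE1 was counted 122 and 63 times in WT and 5377 and 65 times in M475R, which gave 1313 and 1339 CPM in WT and 1405 and 979 CPM in M475R. The M475R libraries lay on either side of the WT libraries, replicate 2 standing at 0.696 times replicate 1 (0.537 to 0.889), an interval without 1. This was the only 1 of the 7 genes whose M475R libraries differed so, and for WT 0 of 7 did. These intervals were not adjusted for the number of genes, and over all genes the M475R pair differed by no more than sampling noise. Whether the SSE1 difference is more than sampling noise is thus not settled. The pooled ratio of M475R to WT was 1.06 (0.913 to 1.23, adjusted p = 0.892, edgeR). This interval holds counting error alone and mostly reflects M475R replicate 1. It cannot leave out a change, because it holds no spread between cultures. Without M475R replicate 1 the log2 fold change of SSE1 was -0.39 (adjusted p = 0.368, edgeR), against 0.04 with it. FES1, with 215 and 106 CPM in WT and 148 and 120 CPM in M475R, gave a ratio of 0.827 (0.554 to 1.29, log2 fold change -0.27, adjusted p = 0.617, edgeR), and without WT replicate 1 its log2 fold change was 0.49 (adjusted p = 0.757, edgeR). SSE2, the stress-linked second Hsp110 gene, was below the filter, with 6 and 2 counts in WT and 357 and 4 in M475R, and its ratio was 1.62 (0.814 to 3.79). SSE1 supplied nearly all Hsp110 reads in both strains, 95.9% of the SSE1 and SSE2 counts in WT (92.0% to 98.2%) and 93.8% in M475R (93.1% to 94.4%), and the genes are equally long.

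The inducible Hsp70 genes were too sparsely counted in WT for a difference of the size seen in SIS1 to be detected. SSA4 was counted 6 and 5 times in WT and 411 and 7 times in M475R, with a ratio of 1.37 (0.756 to 2.76, log2 fold change 0.45 ± 0.43 SE, adjusted p = 0.546, edgeR). SSA3 was counted 4 and 1 times in WT and 220 and 2 times in M475R, with a ratio of 1.60 (0.674 to 4.96), and was not tested. The intervals of both genes hold 1, and both also hold 2-fold. SSA3 and SSA4 summed as 1 feature, an alternative chosen after the values were seen, gave a log2 fold change of 0.52 (adjusted p = 0.334, edgeR).

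M475R was also set against the deletion, that is the altered protein against its absence. All 7 pooled ratios lay above 1, but they share 1 deletion library and mostly reflect M475R replicate 1. The share of such ratios over all genes was not counted. Of the 5 tested genes 1, SSE1, was called higher, with 4 not passing and 0 lower. Over all tested genes 10.3% were called, 4.09% higher and 6.19% lower. The median log2 fold change of the tested chaperone genes was 0.45, beside 0.01 over all genes tested. SSE1 stood at 989 CPM in the deletion, from 104 counts, and the M475R libraries lay above (1405) and just below (979) that level, so the strains overlapped. The pooled ratio was 1.41 (1.16 to 1.73, log2 fold change 0.45 ± 0.16 SE, adjusted p = 0.0424, edgeR). Without M475R replicate 1 the log2 fold change was 0.03 (adjusted p = 0.972, edgeR), so the call rested on that library. The call was lost as well with DESeq2 size factors (adjusted p = 0.0512, edgeR), without the filter on low counts (0.131, edgeR), and with the DESeq2 test (0.784).

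In the other genes both M475R libraries stood above the deletion library except for SSA3, and such an order was met in 38.8% of all tested genes. SSA4 was at 47.6 CPM in the deletion and at 107 and 105 CPM in M475R, a ratio of 2.26 (0.96 to 6.99, adjusted p = 0.212, edgeR) that rested on 5 deletion counts. FES1 had 10 counts in the deletion and a ratio of 1.55 (0.838 to 3.26, adjusted p = 0.428, edgeR). SIS1 and YDJ1 gave ratios of 1.28 (0.911 to 1.85, adjusted p = 0.441, edgeR) and 1.19 (0.94 to 1.53, adjusted p = 0.501, edgeR). For the genes below the filter, the ratio was 1.95 for SSE2 (0.828 to 6.04) and 1.499 for SSA3 (0.577 to 5.55), from 5 and 4 deletion counts.

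**Figure D3:**
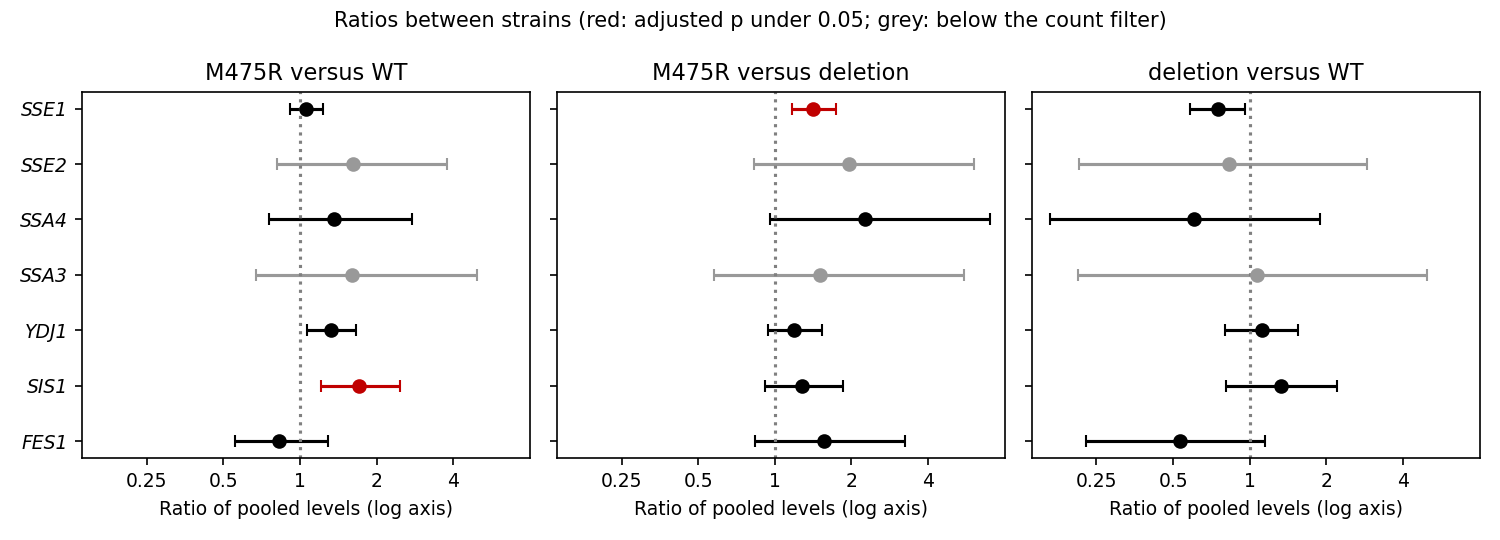
Ratios of pooled TMM-scaled levels (log axis) for the 7 genes in the 3 comparisons, with exact 95% counting intervals. Red marks genes with an adjusted p under 0.05 (SIS1 in M475R versus WT, SSE1 in M475R versus deletion) and grey marks SSE2 and SSA3, which were not tested; the comparisons share libraries.

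Loss of ASK10 itself was examined by setting the deletion library against WT. Of the 5 tested genes 0 were called by edgeR (lowest adjusted p = 0.487) and 0 by DESeq2, and 1, SSE1, had an unadjusted p under 0.05. Calls were rare over all genes too, at 0.688% of those tested, 0.481% higher and 0.206% lower. The genes did not share a direction. SSE1 had a ratio of 0.748 (0.583 to 0.957, adjusted p = 0.487, edgeR), FES1 of 0.533 (0.228 to 1.15) and SSA4 of 0.605 (0.165 to 1.89), with the deletion library below both WT libraries for each. SIS1, at 1.33 (0.803 to 2.21), and YDJ1, at 1.11 (0.80 to 1.54), had the deletion library above both WT libraries. Such orders were met in 34.1% (above) and 30.5% (below) of all tested genes. With 1 deletion library the spread within that strain was not measured, and it was assumed to be like that of the others.

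Side by side, the 3 comparisons gave SIS1 log2 fold changes of 0.77 for M475R against WT, 0.36 for M475R against the deletion and 0.41 for the deletion against WT, and SSE1 values of 0.04, 0.45 and -0.42. The SIS1 level in the deletion thus lay between the other strains, whereas the SSE1 level in the deletion lay below both pooled levels. These comparisons share their libraries and are not separate evidence. SIS1 was set beside 458 other genes with at least 100 counts over the WT and deletion libraries. SIS1 itself, with 34 counts in WT and 34 in the deletion, was below that minimum. Likeness was the distance in the pair of log2 fold changes of M475R and of the deletion against WT. Nearest were ALD6 (distance 0.0376), UBA1 (0.118) and ERG10 (0.14). These distances are smaller than the SE of SIS1 itself, 0.235 for M475R and 0.355 for the deletion against WT. The order of such neighbours was therefore not resolved, and both comparisons share the WT libraries.

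Genes that work beside the system were counted from lists, which were chosen with earlier results of these data known. The shares called within the lists are therefore descriptions and not tests of the lists. Over all tested genes edgeR called 18.6% in M475R against WT, 10.3% in M475R against the deletion and 0.688% in the deletion against WT. Among other J-domain proteins and the ribosome-associated complex, 7 of 12 measured genes were tested and 0 were called by edgeR in any of the 3 comparisons. This complex, made of the J-domain protein Zuo1 and the Hsp70-like Ssz1, serves the Ssb proteins at the ribosome. ZUO1 stood at 926 and 744 CPM in WT, 1075 in the deletion, and 846 and 813 in M475R, and SSZ1 at 980 and 978, 904, and 809 and 723 CPM. For SSZ1 both M475R libraries lay below all others (ratio to WT 0.824, 0.695 to 0.985), without passing the test (adjusted p = 0.179, edgeR). Of all tested genes, 26.1% had both M475R libraries below both WT libraries, and 38.8% had them below the deletion library. These genes were described, and ZUO1 and SSZ1 singled out, after their values were seen.

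Among partners and other exchange factors, 8 of 9 measured genes were tested. By edgeR 3 were higher in M475R than in WT and 0 lower, beside 8.46% and 10.1% of all tested genes. As the list was chosen with earlier results of these data known, that difference is no test of it. With DESeq2 none of the 3 was called, at adjusted p = 0.0667 for STI1, 0.126 for SGT2 and 0.0653 for HSP104, and with the CV at 20% none was either (0.182, 0.318 and 0.174, edgeR), at log2 fold changes of 0.70 to 0.95. STI1, which encodes a scaffold that links Hsp70 to Hsp90, was at 431 and 383 CPM in WT, 390 in the deletion, and 805 and 693 in M475R. Both M475R libraries thus stood well above the other 3, with a ratio to WT of 1.94 (1.495 to 2.56, adjusted p = 1.15e-05, edgeR) and to the deletion of 2.06 (1.52 to 2.88, adjusted p = 8.22e-05, edgeR). Without M475R replicate 1 both calls were lost (adjusted p = 0.0793 and 0.0935, edgeR), at log2 fold changes of 0.78 and 0.87. SGT2, an adaptor for tail-anchored membrane proteins that binds Hsp70, had a ratio to WT of 1.69 (1.33 to 2.17, adjusted p = 0.00039, edgeR; 0.15 without M475R replicate 1). HSP104, the disaggregase that works with Ssa proteins and Hsp40s, was at 323 and 276 CPM in WT, 885 in the deletion, and 587 in both M475R libraries. It was the only listed gene called higher in the deletion than in WT (ratio 2.88, 1.99 to 4.24, adjusted p = 3.62e-06, edgeR), a call lost with DESeq2 (adjusted p = 0.153) and with the CV at 20% (0.185, edgeR). M475R stood in between, higher than WT (1.91, adjusted p = 0.000138, edgeR) but lower than the deletion (0.664, adjusted p = 0.0102, edgeR; 0.323 without M475R replicate 1). Against the deletion 1 of these 8 genes, STI1, was thus higher and 1, HSP104, lower, beside 4.09% and 6.19% of all tested genes. The median log2 fold change of this list was -0.03 in M475R versus WT, so the 3 called genes did not stand for the list.

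Of 13 measured genes on a list of Hsf1 and its targets, 10 were tested. In M475R 5 of them were above WT by edgeR and 0 below, beside 8.46% higher and 10.1% lower among all tested genes. This list too was chosen with earlier results of these data known, so neither these shares nor its medians test it. With DESeq2 only HSP82 of the 5 was called (adjusted p = 0.000756), and MDJ1 (0.159), STI1, HSP104 and HSP78 (0.462), the last named after its value was seen, were not. With the CV at 20% none of the 5 was called. STI1 and HSP104 are among them. The others called with the smallest p were HSP82, an Hsp90 gene (ratio 1.99, 1.72 to 2.33, adjusted p = 4.15e-14, edgeR), which may share reads with HSC82, not analysed here, and MDJ1, a mitochondrial Hsp40 gene (2.03, 1.36 to 3.18, adjusted p = 0.00145, edgeR). For MDJ1 the adjusted p became 0.0769 when WT replicate 2 was left out and 0.0891 when M475R replicate 1 was (edgeR). HSP78 stood at 172 and 255 CPM in WT and at 391 and 256 CPM in M475R, a log2 fold change of 0.95. Its edgeR call was lost without WT replicate 1 (log2 fold change 0.62) and without M475R replicate 1 (0.39). HSF1 itself, named after its value was seen, did not pass (ratio 1.17, 0.748 to 1.92, adjusted p = 0.707, edgeR). Against the deletion 4 of the 10 were higher by edgeR and 1, HSP104, lower, beside 4.09% and 6.19% of all tested genes. None of these 5 calls held with DESeq2 (adjusted p = 0.178 to 0.573) or with the CV at 20% (0.267 to 0.92, edgeR). Among the higher were HSP82 (ratio 1.49, adjusted p = 0.00049, edgeR) and HSP78, a mitochondrial disaggregase gene (2.92, 1.74 to 5.35, adjusted p = 7.35e-05, edgeR). Without M475R replicate 1 the edgeR calls of HSP82, HSP78, STI1 and MDJ1 against the deletion were all lost. The log2 fold changes were then 0.29, 0.98, 0.87 and 1.035. In the deletion against WT HSP104 alone was called. The median log2 fold change of the list was 0.94 for M475R against WT, 0.33 for M475R against the deletion and 0.39 for the deletion against WT, beside 0.40, 0.45 and -0.42 for the 5 tested Hsp70-system genes.

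**Figure D4:**
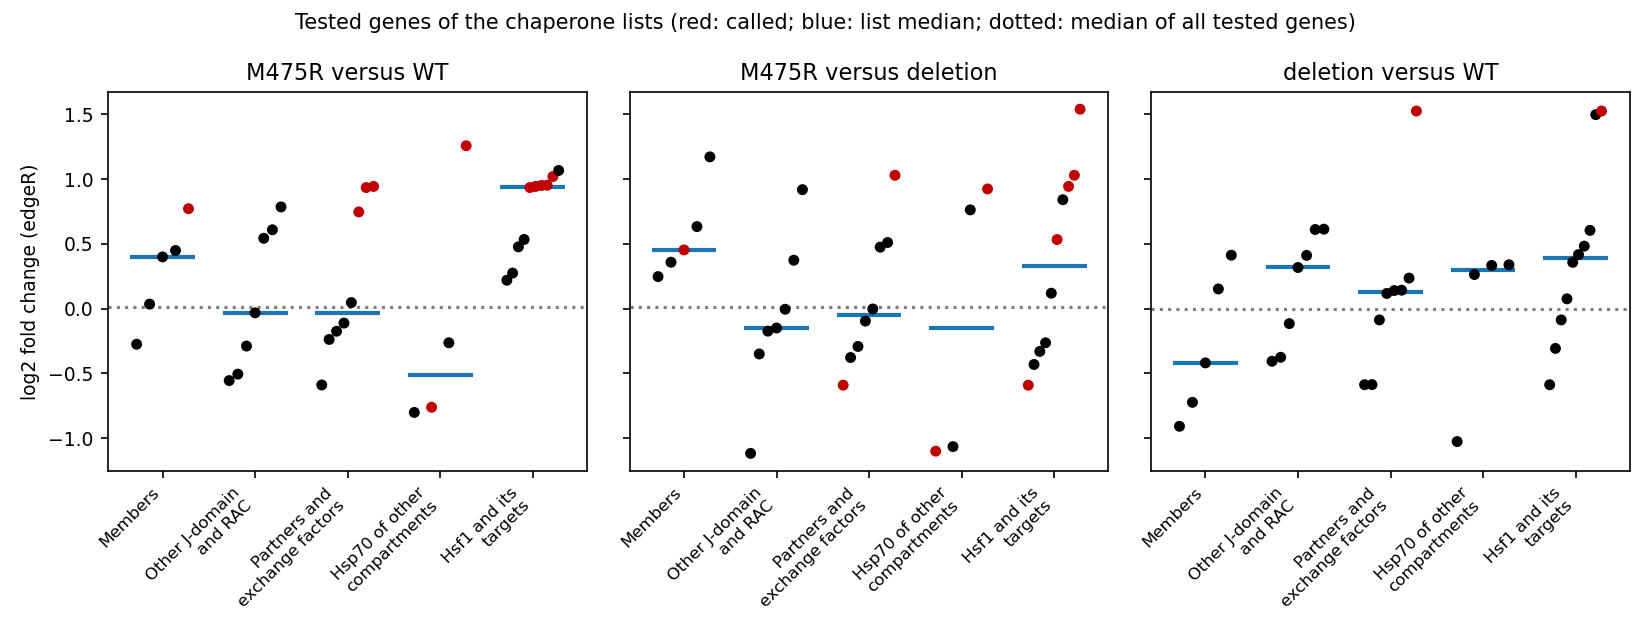
Log2 fold changes (edgeR) of the tested genes of each list in the 3 comparisons, with called genes in red, the median of each list in blue and the median of all tested genes dotted. STI1 and HSP104 belong to both the partner list and the Hsf1 list, and RAC stands for the ribosome-associated complex.

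Among Hsp70 genes of other compartments, of 5 measured, 4 were tested, and in M475R against WT 1 was called higher and 1 lower. Over all tested genes 8.46% were called higher and 10.1% lower against WT, and 4.09% and 6.19% against the deletion. SSC1, the main Hsp70 of the mitochondrial matrix, was higher (ratio 2.44, 2.09 to 2.86, adjusted p = 8.12e-25, edgeR), and KAR2, the Hsp70 of the endoplasmic reticulum, lower (0.596, 0.502 to 0.713, adjusted p = 9.40e-06, edgeR; 0.0687 without WT replicate 1). Both were also called against the deletion, at 1.93 (adjusted p = 2.98e-11, edgeR) and 0.471 (4.36e-10). With DESeq2 all 4 of these calls held (adjusted p at most 0.0149), and with the CV at 20% only that of SSC1 against WT did (adjusted p = 0.0102, edgeR).

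The upstream sequences of the Hsp70-system genes were searched in R64 for 2 motifs over 500 bases before the start codon. The heat shock element was taken as GAA, TTC and GAA in a row with 2 free bases between neighbours, or, on the other strand, TTC, GAA and TTC spaced alike. It occurred upstream of 4 of the 10 genes (SIS1, SSA2, SSE1 and FES1), and of 1.48% of 6002 protein-coding genes. SIS1 held 3 matches, counted over both strands and with overlaps allowed, and the others 1 each. The stress response element AGGGG, or CCCCT on the other strand, occurred upstream of 2 of the 10 (SSA4 with 3 matches and SSE2 with 1) and of 34.1% of all. SSE1 and FES1, with a heat shock match, did not pass in M475R versus WT, while SIS1 did. Whether a match bears on these levels was not tested. Only these exact patterns were searched, so other forms of the elements would be missed. A match describes letters in S288C and shows no binding.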

How the data were processed

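Per the labels, mRNA was isolated from total RNA, fragmented, copied to cDNA and amplified by PCR. The submitters' processing notes list BWA and Bowtie with no version. Apart from the strain name in the gene identifiers, the counter, genome build and annotation are not given in the sources used here. The deposited tables give an expected count per gene and library, not always whole, and an FPKM made by the authors, in which 0 is written as 0.001. The authors' log2 ratio in their 6 filtered lists was used only to see which genes are listed, and 0 of the 7 genes were. In those lists 20 columns of per-sample values were not used.

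Here, 7 full tables were joined over 6032 genes (0 values differed between tables), and counts were rounded. A count was absent for 436 combinations of gene and library and was set to 0, so not every 0 was a listed value. Symbols came from a RefSeq gene table of R64, which matched 5515 identifiers; of these, 91.2% had equal lengths. All 5 libraries were fitted with edgeR 4.0.16 (R 4.3.3): TMM, filterByExpr, quasi-likelihood test, Benjamini-Hochberg adjustment over 2909 genes, called under 0.05. The common dispersion was 0.00101 (biological CV 3.18%) with 2 residual degrees of freedom and a spread shared by all genes, so p-values and SE carry little beyond counting error. The SE is the log2 fold change divided by the root of the F statistic. Ratios use pooled counts over TMM-scaled sizes with exact conditional binomial 95% intervals; M475R ratios mostly reflect its deep replicate 1. All intervals, and the floor, describe counting error alone. Reads amplified by PCR are not independent molecules, so the intervals may be too narrow even for that. The fit was also run on simulated counts whose spread was set near the fitted one. That run cannot show how calls would hold under a larger spread between cultures.

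All chaperone genes chosen are named; of the related lists, genes are named if called, up to 4 with the smallest adjusted p per list and comparison. Genes and lists were chosen with earlier results of these data known. Alternatives were DESeq2 1.42.0, other scalings, no filter, a fixed CV, a replicate block and leaving out each library. A planned sum of SSB1 and SSB2, and one with SSA2, could not be formed. Protein sequences were not used here.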

Additional observations from a re-analysis of the deposited data

How the results depend on the processing

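Of 151 log2 fold changes of the chaperone genes under an alternative, 139 stayed on the same side of the threshold and 146 kept their sign; the other 5 were not called, and were SSE1 (4) and FES1 (1) in M475R versus WT. In M475R versus WT, the chaperone genes called went from 1 to 2 with total counts, and to 0 with DESeq2 or with a CV of 20%; leaving out 1 library gave 0 to 2. All genes called there fell from 540 to 132 with DESeq2 and 84 with a CV of 20%, and to 176 to 518 without 1 library. In M475R versus deletion, the chaperone genes called fell from 1 to 0 with DESeq2 size factors, DESeq2, no filter or a CV of 20%, and were 0 to 1 without 1 library; all genes called went from 299 to 67 with DESeq2 and 50 with a CV of 20%, and to 105 to 313 without 1 library. In deletion versus WT, 0 chaperone genes were called under any alternative run, and all genes called went from 20 to 4 with DESeq2, 3 with a CV of 20%, and 9 to 17 without 1 library. The cause was not tested; leaving out a library also lowers the number of genes tested.

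The deviations of same-numbered WT and M475R libraries had a correlation of -0.03 across 2909 genes, from 2 pairs. The libraries within each of these strains differed by no more than sampling noise, so this correlation could not show whether replicate numbers pair them. With the replicate block, chaperone genes called were 1, 0 and 0 and all genes called 486, 156 and 11 for M475R against WT, M475R against the deletion and the deletion against WT; SSE1 lost its call against the deletion (adjusted p = 0.743, edgeR), as did STI1 (0.0763), HSP78 (0.106), HSP104 (0.155), HSP82 (0.197) and MDJ1 (0.352). Where a strain was left with 1 library, it was assumed to vary like the others. Depth limits SSA3, SSA4 and SSE2, which had 1 to 7 counts in each shallow library.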
